A study of Mus musculus with 15 samples.

Results

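Matrix metalloproteinases and their tissue inhibitors were followed in microdissected mouse colon adenomas and normal colon epithelium. The set holds 7 protease genes (Mmp7, Mmp2, Mmp3, Mmp9, Mmp10, Mmp13 and Mmp14) and 3 inhibitor genes (Timp1, Timp2 and Timp3). They were found by gene name among the non-control probes of the array, as 14 probes of 41174 probes and 10 genes of 27751 features. The animals were male Apc+/Min-FCCC mice on a C57BL/6J background, which carry 1 mutant copy of the tumor suppressor Apc in every cell, and colonoscopy at 6 to 8 weeks of age divided them into tumor-bearing and tumor-free mice. Treated adenomas came from tumor-bearing mice given sulindac at 300 ppm together with atorvastatin at 100 ppm in chow for 7 days (4 arrays), and untreated adenomas came from tumor-bearing mice on plain chow (3 arrays). Epithelium came from tumor-bearing mice (4 arrays) and from tumor-free mice (4 arrays), both given atorvastatin at 100 ppm for 7 days. Sulindac is a nonsteroidal anti-inflammatory drug and atorvastatin a cholesterol-lowering statin. The labels of the tumor-bearing epithelium give the drug but not age or sex, which were taken from the protocol. That protocol assigns tumor-bearing mice to plain chow or to both drugs, while these labels name atorvastatin alone; the labels were followed.

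Matrix metalloproteinases are zinc-dependent endopeptidases that are made as inactive proenzymes and cleave collagens, laminins and other matrix proteins, as well as cytokines, growth factor precursors and cell surface proteins. Most are secreted, and their activity is set by transcription, by removal of the propeptide and by tissue inhibitors of metalloproteinases, which bind the active site. In the intestine matrilysin, the product of Mmp7, is made by epithelial cells, is a Wnt target in colorectal tumors and, in mice, activates the alpha-defensins of Paneth cells. The stromelysins, collagenases and gelatinases are mostly products of stromal and inflammatory cells. The arrays measured RNA, so proenzyme activation and inhibitor binding were not measured.

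Levels are log2 values of the processed spot intensity relative to the 75th percentile of the array's non-control probes, so a level of 0 lies at that percentile and a step of 1 doubles the signal. Each probe binds with its own efficiency, and levels are compared between groups for 1 probe, not between genes. The share of probes detected well above background was 56.5% to 75.5% per array. Several arrays of 1 group were near-identical: 6 pairs differed by an SD of 0.09 to 0.17, less than the spot noise of 0.19 to 0.22, while 0.59 to 1.12 separated the remaining 15 pairs of the same group. Arrays of a group that differed by less than the spot noise were counted as 1 sample, which left 2 treated adenoma, 2 untreated adenoma, 3 tumor-bearing and 3 tumor-free epithelium samples. Array 2 of the tumor-bearing and array 2 of the tumor-free epithelium, which carry different labels, also differed by only 0.18, with a spot noise of 0.18. These arrays stayed in the groups they are labelled with, and the results were also computed without both: 7 of the 10 genes were then called in adenoma against epithelium, against 8 with them, and Mmp14 lost the call. Epithelial markers were present in all 4 groups, with 10 of 10 above background on every array. Fibroblast and macrophage markers, 10 of 10 for each list, were also above background on every array. Detection alone therefore does not tell how pure the tissues were. The summed signal of the epithelial markers was 315 to 461 in treated adenomas and 404 to 416 in untreated adenomas. It was 442 to 715 in tumor-bearing and 509 to 626 in tumor-free epithelium, in units of the 75th percentile.

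The first comparison set the adenomas, as the mean of both adenoma groups, against the epithelium, as the mean of both epithelium groups. Of the 10 genes, 8 rose in adenoma and none fell (limma, two-sided, adjusted p under 0.05 over all 18912 features tested), where 9.14% of all features were called higher, 12.6% lower and 21.8% in either direction. Mmp7, Mmp13, Mmp10, Mmp3 and Timp1 rose by more than 7-fold, and Timp3 and Mmp14 by less than 3-fold. Mmp9 rose too, with no fold given because its probe was well above background on 4 of 8 epithelium arrays. It entered the test only through the adenoma groups, in which it was high, so its part in the count of 8 is partly fixed. Mmp2 and Timp2 did not pass the threshold. The median log2 difference over the 10 genes was 3.91, against -0.17 over all features. For 6 of the 10 every adenoma sample lay above every epithelium sample, as did 7.17% of all features. Untreated adenomas had no drug while both epithelia had atorvastatin, so tissue and drug are partly confounded in this comparison.

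**Figure D1:**
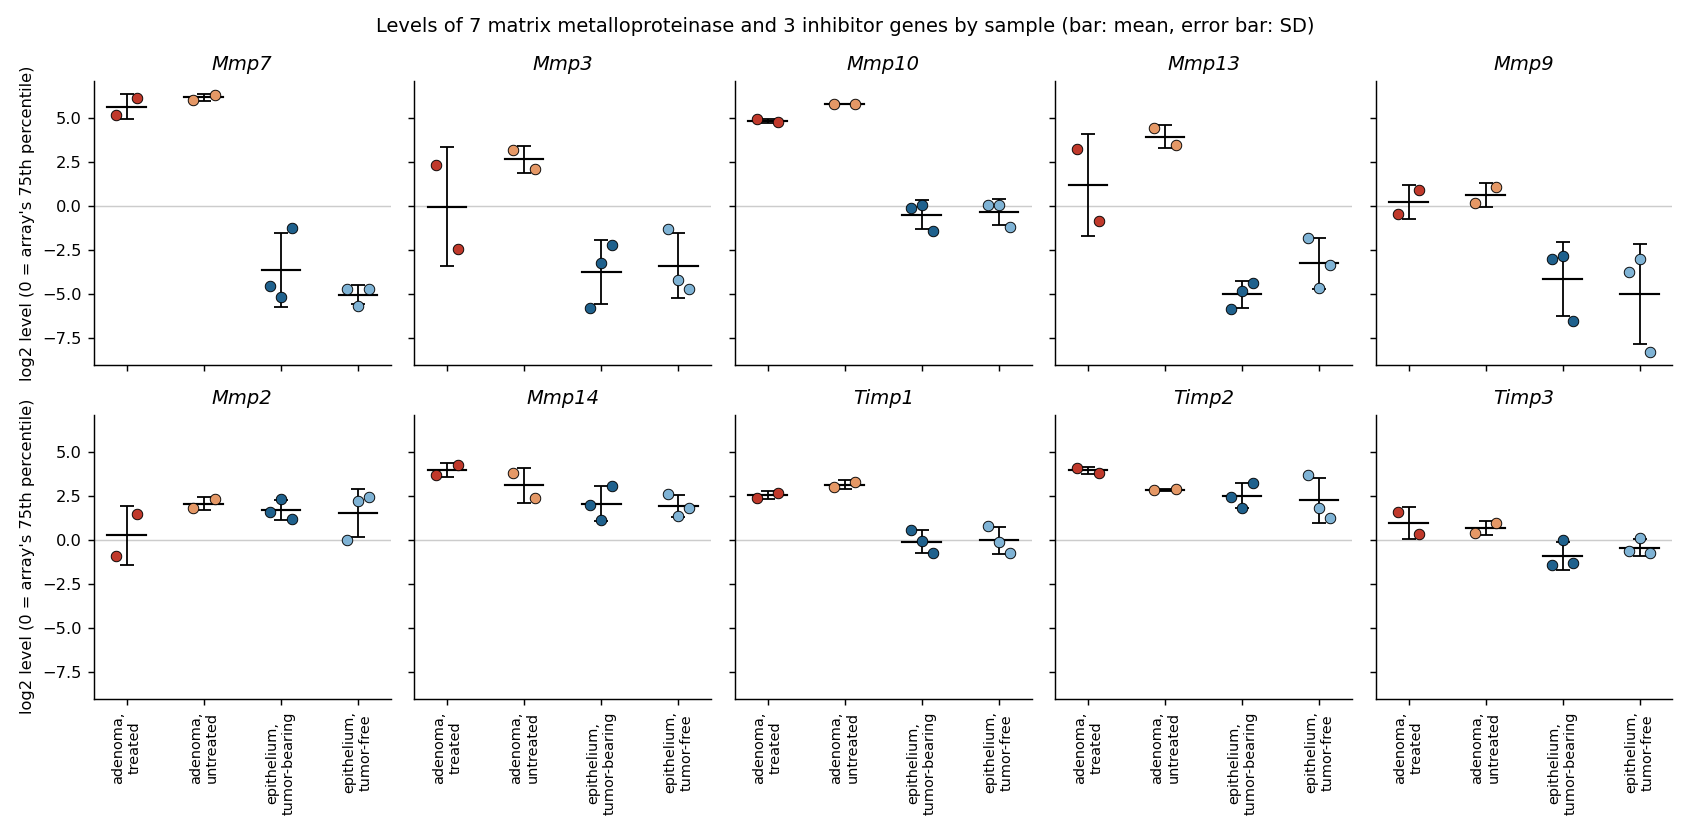
Levels of the 10 genes in each sample. The y axis is the log2 level relative to the 75th percentile of the array, points are samples (2, 2, 3 and 3 per group), bars are group means and error bars SD. Mmp7, Mmp10 and Timp1 separate the adenoma groups on the left from the epithelium groups on the right, with Mmp7 at 5.17 to 6.33 in adenoma and -5.67 to -1.24 in epithelium, while the groups overlap for Mmp2 and Timp2.

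Matrilysin showed the widest difference. Its probe lies on chromosome 9 (7695434 to 7695493, plus strand, mm7), and its sequence is shown because every Mmp7 value rests on this single 60-mer.
Mmp7, probe A_51_P426096, chr9:7695434-7695493, plus strand: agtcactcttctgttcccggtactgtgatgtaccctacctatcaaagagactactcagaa
Mmp7 lay at 5.17 and 6.19 in treated adenomas and at 6.06 and 6.33 in untreated adenomas, against -4.57, -5.17 and -1.24 in tumor-bearing and -4.74, -5.67 and -4.73 in tumor-free epithelium. All 4 adenoma samples were far above all 6 epithelium samples, and array 4 of the tumor-bearing epithelium was the highest of the epithelium samples. Mmp7 rose 1254-fold in adenoma (log2 difference 10.29 ± 0.70 SE, 95% confidence interval 8.73 to 11.85, limma adjusted p = 1.25e-05). The probe was well above background on 7 of 7 adenoma and 8 of 8 epithelium arrays, so the fold is measured on both sides. Without the near-identical pair across groups the difference was 9.76 (limma adjusted p = 5.87e-05), and without array 4 of the tumor-bearing epithelium it was 10.90 (limma adjusted p = 1.12e-06). In the order of group means, untreated adenoma stood at 6.20 ± 0.19 and treated adenoma at 5.68 ± 0.72 (SD, n = 2 each), followed by tumor-bearing epithelium at -3.66 ± 2.12 and tumor-free epithelium at -5.05 ± 0.54 (SD, n = 3 each). Neither the adenoma groups nor the epithelium groups differed from each other beyond their spread.

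The stromelysins Mmp3 and Mmp10 cleave proteoglycans, laminin and fibronectin and activate other metalloproteinases. Mmp10 lay at 4.94 and 4.78 in treated adenomas and at 5.80 and 5.82 in untreated adenomas, against -0.09, 0.05 and -1.40 in tumor-bearing and 0.08, 0.08 and -1.17 in tumor-free epithelium. The samples of each tissue were close together and the tissues did not overlap. Mmp10 rose 53.5-fold (log2 difference 5.74 ± 0.40 SE, limma adjusted p = 1.41e-05). Mmp3 lay at 2.36 and -2.43 in treated adenomas and at 3.20 and 2.13 in untreated adenomas, against -5.81, -3.27 and -2.22 in tumor-bearing and -1.29, -4.20 and -4.74 in tumor-free epithelium. The sample of treated arrays 2, 3 and 4 lay within the epithelium range, so the tissues overlapped for Mmp3, although both adenoma groups had a higher mean. Mmp3 rose 29.9-fold (log2 difference 4.90 ± 1.07 SE, limma adjusted p = 0.00984). Its log2 difference was 3.70 without treated array 1 and 6.10 without treated arrays 2, 3 and 4, both called. Its probe was well above background on 7 of 7 adenoma arrays and on 6 of 8 epithelium arrays.

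Mmp13, the main interstitial collagenase of mice, cleaves fibrillar collagens. It lay at 3.27 and -0.83 in treated adenomas and at 4.45 and 3.49 in untreated adenomas, against -5.88, -4.86 and -4.36 in tumor-bearing and -1.79, -4.68 and -3.33 in tumor-free epithelium. The tissues did not overlap, and the lowest adenoma sample was again that of treated arrays 2, 3 and 4. Mmp13 rose 107-fold (log2 difference 6.75 ± 0.81 SE, limma adjusted p = 0.000342), with 7 of 7 adenoma and 7 of 8 epithelium arrays above background. Without treated array 1 the difference was 5.72 and without treated arrays 2, 3 and 4 it was 7.77, both called.

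The gelatinases Mmp9 and Mmp2 cleave denatured collagen and the type IV collagen of basement membranes. Mmp9 is stored in the granules of neutrophils, whereas Mmp2 is mainly a product of fibroblasts. Mmp9 lay at -0.44 and 0.92 in treated adenomas and at 0.15 and 1.11 in untreated adenomas, against -3.03, -2.86 and -6.58 in tumor-bearing and -3.74, -2.99 and -8.31 in tumor-free epithelium. All adenoma samples were above all epithelium samples, and 4 of the 8 epithelium arrays were well above background. On array 1 of the tumor-bearing epithelium the spot was flagged as an outlier and dropped, so the value of that sample rests on array 3. Mmp9 rose by a fitted log2 difference of 5.02 ± 1.09 SE (limma adjusted p = 0.00958). No fold is given, because this size rests partly on unmeasured epithelium levels. Mmp9 passed the filter on dim probes through the adenoma groups alone, in which it was high, so its call is partly fixed by the filter. The difference was 4.42 without array 4 of the tumor-bearing epithelium, 4.20 without arrays 3 and 4 of the tumor-free epithelium and 5.85 without the near-identical pair across groups, all called. A second Mmp9 probe, with 10 spots per array, ranged from -4.36 to 0.01 in adenoma and from -8.50 to -7.28 in epithelium, where it was not well above background on any array. In a fit of all 27141 probes tested it had an adjusted p of 0.000144 (limma), and the first probe 0.0122.

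Mmp2 lay at -0.93 and 1.47 in treated adenomas and at 1.81 and 2.34 in untreated adenomas, against 1.60, 2.32 and 1.19 in tumor-bearing and -0.02, 2.21 and 2.46 in tumor-free epithelium. The ranges of the tissues overlapped almost wholly, and the log2 difference of -0.46 ± 0.61 SE did not pass the threshold (95% confidence interval -1.82 to 0.90, limma adjusted p = 0.609). Mmp14 encodes a membrane-bound metalloproteinase that activates pro-MMP2 at the cell surface together with TIMP2. Mmp14 lay at 3.72 and 4.28 in treated adenomas and at 3.84 and 2.39 in untreated adenomas, against 2.01, 1.13 and 3.09 in tumor-bearing and 2.63, 1.37 and 1.84 in tumor-free epithelium. The untreated array 3 lay among the epithelium samples. Mmp14 rose 2.92-fold (log2 difference 1.55 ± 0.48 SE, limma adjusted p = 0.0441), close to the threshold. Without the near-identical pair across groups its log2 difference was 1.17 (limma adjusted p = 0.168), and it lost the call in 7 of the 19 fits that left out an array or a merged sample, with adjusted p up to 0.175 (limma). These were the fits without treated adenoma array 1 or arrays 2 to 4, without untreated adenoma arrays 1 and 2, without tumor-bearing epithelium array 2 or arrays 1 and 3, and without tumor-free epithelium array 2 or arrays 3 and 4. A second, dimmer Mmp14 probe differed by 2.15 ± 0.76 (SE, limma adjusted p = 0.0794 over all probes, against 0.054 for the first probe in that fit).

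Among the inhibitors, TIMP1 inhibits most secreted metalloproteinases and binds pro-MMP9. Timp1 lay at 2.42 and 2.71 in treated adenomas and at 3.00 and 3.33 in untreated adenomas, against 0.56, -0.05 and -0.76 in tumor-bearing and 0.81, -0.12 and -0.75 in tumor-free epithelium. All 4 adenoma samples lay above all 6 epithelium samples. Timp1 rose 7.56-fold (log2 difference 2.92 ± 0.39 SE, limma adjusted p = 0.000654). The array holds 3 Timp1 probes, shown here in their order along the X chromosome (mm7) because they allow the result to be read from separate stretches of the transcript.
Timp1, probe A_51_P512384, chrX:19305929-19305988, plus strand: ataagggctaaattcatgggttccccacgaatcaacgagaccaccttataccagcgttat
Timp1, probe A_51_P512379, chrX:19305989-19306238, plus strand: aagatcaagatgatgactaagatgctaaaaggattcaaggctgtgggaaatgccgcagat
Timp1, probe A_52_P87713, chrX:19307699-19307758, plus strand: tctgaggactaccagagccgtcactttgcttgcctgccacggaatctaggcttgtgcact
The last of these is the brightest and gave the values above. In the fit of all probes the 3 differed by 3.38 ± 0.52, 3.59 ± 0.46 and 2.92 ± 0.40 in this order (SE, limma adjusted p = 0.00183, 0.000602 and 0.000966), so each of them was higher in adenoma.

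TIMP2 inhibits metalloproteinases and takes part in the activation of pro-MMP2, and TIMP3 is bound to the matrix and also inhibits several ADAM and ADAMTS proteases. Timp3 lay at 1.60 and 0.32 in treated adenomas and at 0.38 and 0.98 in untreated adenomas, against -1.40, 0.00 and -1.29 in tumor-bearing and -0.64, 0.10 and -0.76 in tumor-free epithelium. The tissues did not overlap, but by a narrow margin, and Timp3 rose 2.81-fold (log2 difference 1.49 ± 0.42 SE, limma adjusted p = 0.0306). It lost the call in 6 of the 19 fits that left out an array or a merged sample, with adjusted p up to 0.125 (limma). These were the fits without treated adenoma array 1, without untreated adenoma array 3 or arrays 1 and 2, without tumor-bearing epithelium arrays 1 and 3, and without tumor-free epithelium array 1 or arrays 3 and 4. Timp2 lay at 4.10 and 3.84 in treated adenomas and at 2.83 and 2.90 in untreated adenomas, against 2.46, 1.86 and 3.26 in tumor-bearing and 3.72, 1.81 and 1.25 in tumor-free epithelium. The tissues overlapped through tumor-bearing array 4 and tumor-free array 1, and the log2 difference of 1.03 ± 0.50 SE did not pass the threshold (95% confidence interval -0.08 to 2.13, limma adjusted p = 0.163). Without tumor-free array 1 it passed, with a log2 difference of 1.39 (limma adjusted p = 0.0323).

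**Figure D2:**
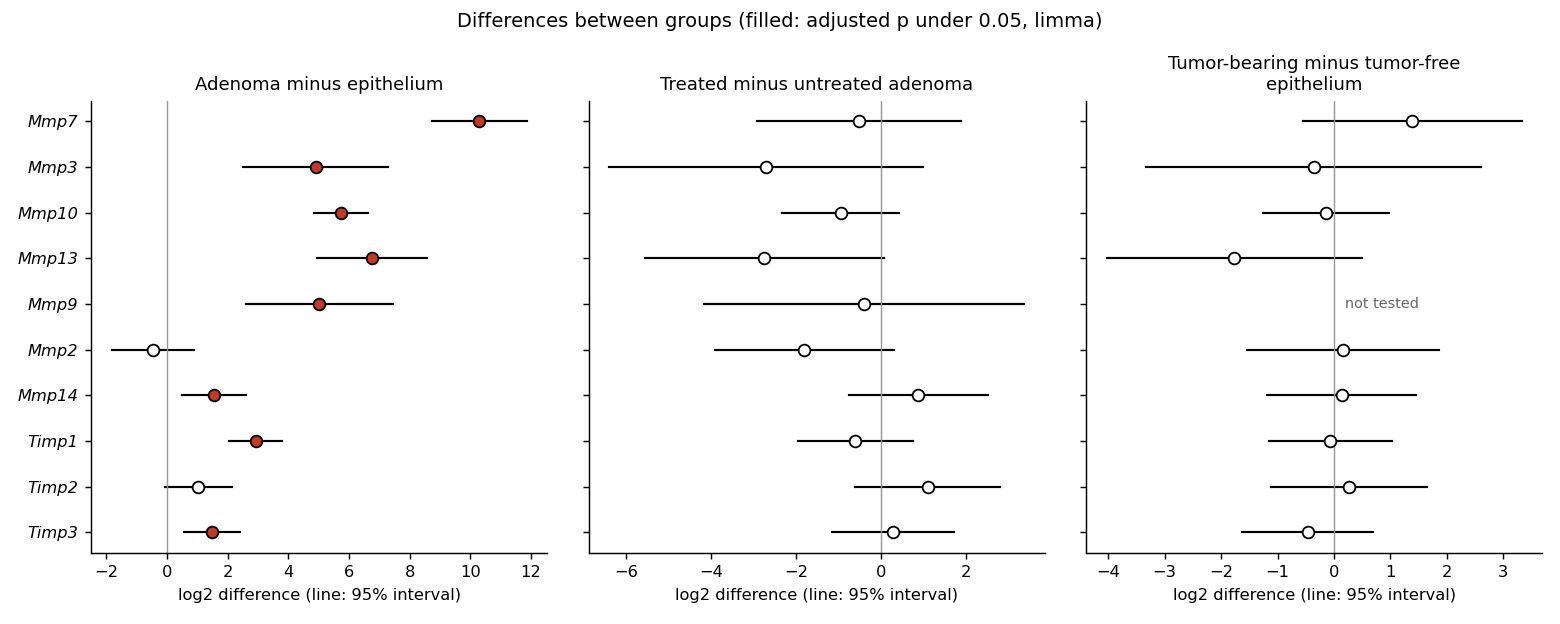
Log2 differences of the 10 genes in 3 comparisons, with 95% confidence intervals; filled points passed the threshold (limma, adjusted p under 0.05). In the left panel 8 genes are filled, from Mmp7 at 10.29 down to Timp3 at 1.49, and no point is filled in the treated against untreated adenomas or in the tumor-bearing against tumor-free epithelium. The x axes differ in range.

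Both adenoma groups were also set against each epithelium group. These 4 comparisons share samples in pairs, so their results are not independent of each other or of the pooled comparison. Mmp7, Mmp10, Mmp13 and Timp1 were called higher in all 4 of them. For treated adenoma 4 of the 10 genes were called higher against tumor-bearing epithelium and 4 against tumor-free epithelium, where 6.6% and 4.54% of all features were called higher. For untreated adenoma 5 were called higher against tumor-bearing and 6 against tumor-free epithelium, where 5.32% and 4.11% of all features were called higher. Mmp3 was called with untreated adenoma against tumor-bearing epithelium (log2 difference 6.43 ± 1.51 SE, limma adjusted p = 0.0231) and against tumor-free epithelium (6.07 ± 1.51 SE, limma adjusted p = 0.0322). With treated adenoma its differences were 3.73 ± 1.51 SE and 3.37 ± 1.51 SE (limma adjusted p = 0.13 and 0.213). Mmp9 was called with untreated adenoma against tumor-free epithelium (5.65 ± 1.54 SE, limma adjusted p = 0.0463). Against tumor-bearing epithelium Mmp3 and Mmp13 passed the filter on dim probes through the adenoma group alone, in which they were high. Against tumor-free epithelium so did Mmp9. The counts of 5 and 6 for untreated adenoma are therefore partly fixed by the filter. So is the count of 4 for treated adenoma against tumor-bearing epithelium. Mmp2, Mmp14, Timp2 and Timp3 were called in none of the 4.

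The arrays were scanned on 6 dates, 3 of which held both adenoma and tumor-bearing epithelium, with 1 or 2 arrays of each tissue on a date. Within these dates Mmp7 differed by 7.37 to 10.97, Mmp10 by 5.41 to 6.09 and Mmp13 by 3.57 to 10.13. Mmp9 differed by 2.88 to 7.39, Timp1 by 2.12 to 3.27, Mmp14 by 1.21 to 2.33, Timp3 by 1.08 to 2.40 and Timp2 by 0.58 to 0.99. For these 8 genes the adenoma value was the higher on all 3 dates. The dates are not separate comparisons, since the first 2 hold near-identical arrays of untreated adenoma and of tumor-bearing epithelium. Mmp3 differed by 7.86 and 8.38 on 2 dates and by -0.35 on the third, which held 1 treated adenoma array and tumor-bearing array 4. Mmp2 ranged from -1.15 to 0.26. No date held tumor-free epithelium together with another group.

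Mmp7, Mmp3, Mmp10 and Mmp13 are neighbours. In the coordinates of the array design (mm7) their probes lie on chromosome 9 between 7280046 and 7695493, within a run of 8 Mmp genes that have probes. From low to high coordinate these are Mmp13, Mmp12, Mmp3, Mmp1a, Mmp10, Mmp8, Mmp20 and Mmp7. Genes without a probe are missing from this order, and Mmp1b and Mmp27 had none on the array. Of these, 6 passed the filter on dim probes and were called higher in adenoma, which includes the 4 genes above. Among all features tested 9.14% were called higher. Mmp8 and Mmp12 passed it through the adenoma groups in which they were high, so their calls were partly fixed by the filter and the count is a description only. Mmp8, the neutrophil collagenase, was at least 8.69-fold higher (limma adjusted p = 1.82e-05), and Mmp12, the macrophage elastase, was at least 1.83-fold higher (limma adjusted p = 0.000288). Both were not well above background on any epithelium array, so their folds are lower bounds against the signal at which probes become measurable. Mmp8 lay at -2.94 and -2.96 in treated adenomas and at -2.35 and -3.80 in untreated adenomas, all dim values. Mmp1a and Mmp20 did not pass the filter on dim probes. Within 500000 bases on either side of the run the array holds 7 other named genes, Dync2h1, Dcun1d5, Tmem123, Birc2, Birc3, Yap1 and Cfap300. All 7 were tested, and 1 of them, Tmem123, rose (2.83-fold, limma adjusted p = 0.00806), beside the 9.14% of all features called higher.

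**Figure D3:**
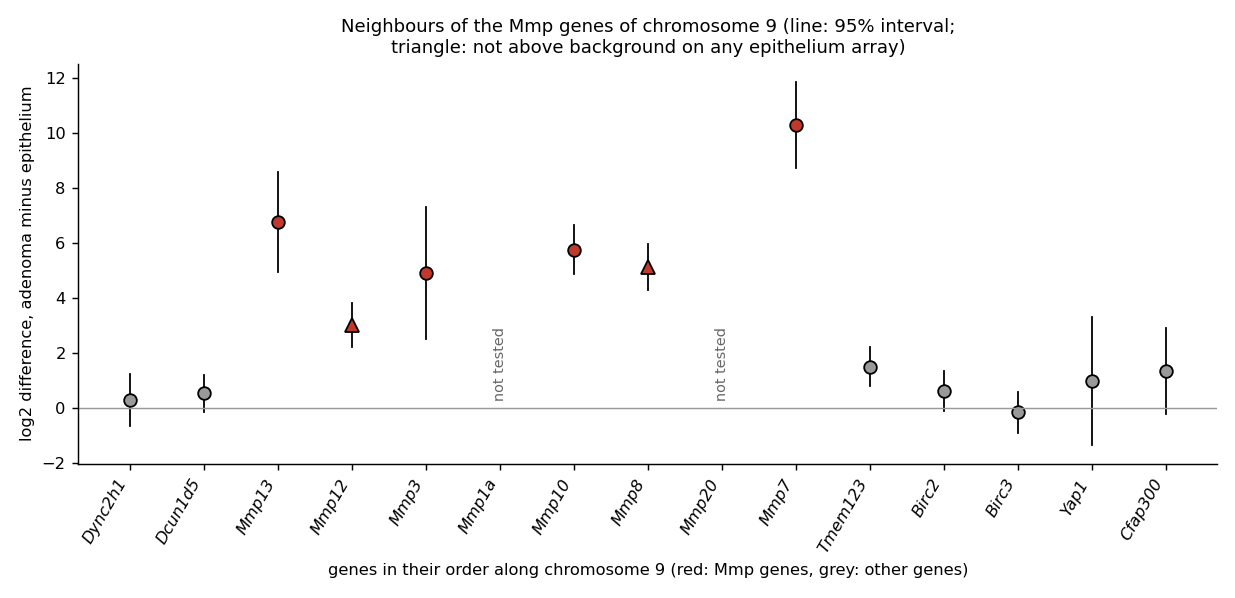
Log2 difference between adenoma and epithelium for the 15 named genes of this stretch of chromosome 9, in their order along it but not to scale, with 95% confidence intervals. Red points are Mmp genes, grey points other genes, and triangles mark genes not well above background on any epithelium array. The Mmp genes tested lie between 3.02 and 10.29 and the other genes tested between -0.17 for Birc3 and the value of Tmem123, the 1 of them that passed the threshold.

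The upstream sequences of the 4 chromosome 9 genes are shown because they rose together and because metalloproteinase promoters are known for AP-1 sites, which bind dimers of Fos and Jun proteins. Of the 10 genes 8 had an entry in the RefSeq promoter table (GRCm38.p6), and the 250 bases before the annotated start were read; Mmp2 and Mmp9 had none. For Mmp7 the first of 2 entries was used. Matches to the AP-1 motif TGANTCA are in capitals. This motif reads the same on both strands, and none of its matches overlaps a match to the other motifs searched.
Mmp7, chr9:7691840-7692089, plus strand: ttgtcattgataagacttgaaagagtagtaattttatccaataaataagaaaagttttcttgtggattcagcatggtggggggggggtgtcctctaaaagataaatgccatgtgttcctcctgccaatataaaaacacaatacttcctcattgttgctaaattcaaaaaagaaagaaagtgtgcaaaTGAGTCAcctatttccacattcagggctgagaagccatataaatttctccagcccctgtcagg
Mmp3, chr9:7445572-7445821, plus strand: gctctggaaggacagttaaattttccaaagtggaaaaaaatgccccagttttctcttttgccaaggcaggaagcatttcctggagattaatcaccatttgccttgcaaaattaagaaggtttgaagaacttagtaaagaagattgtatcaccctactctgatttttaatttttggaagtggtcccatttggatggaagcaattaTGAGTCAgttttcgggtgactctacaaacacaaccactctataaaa
Mmp10, chr9:7502092-7502341, plus strand: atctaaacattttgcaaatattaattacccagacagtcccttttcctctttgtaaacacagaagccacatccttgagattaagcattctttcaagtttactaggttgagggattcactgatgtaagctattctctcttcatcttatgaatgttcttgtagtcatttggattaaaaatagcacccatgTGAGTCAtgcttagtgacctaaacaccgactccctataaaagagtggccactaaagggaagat
Mmp13, chr9:7272264-7272513, plus strand: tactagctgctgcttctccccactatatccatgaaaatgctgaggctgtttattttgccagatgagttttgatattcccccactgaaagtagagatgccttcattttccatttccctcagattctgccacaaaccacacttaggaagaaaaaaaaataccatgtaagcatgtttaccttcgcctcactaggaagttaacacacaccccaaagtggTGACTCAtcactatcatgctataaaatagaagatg
Each of the 4 windows holds 1 match to TGANTCA, which 6.73% of all 32536 upstream windows of this length hold. The match begins 63 bases before the start in Mmp7, 46 in Mmp3, 63 in Mmp10 and 35 in Mmp13. The windows of Mmp14, Timp1, Timp2 and Timp3 hold none. TATAAA, the core of the TATA box, was found on either strand in the same 4 windows, in 12.3% of all windows and in none of the other 4. CTTTGA, the core of the Tcf motif of Wnt signalling, was found on either strand in none of the 8 windows and in 13.9% of all windows. The motifs were chosen with these sequences in view, and a match is a description of the letters only.

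Genes that act with these proteases were taken from 4 lists, which were chosen with earlier results of these data known. Of 17 further Mmp and Timp genes 15 were on the array and 9 were tested, and in adenoma 3 rose and 1 fell, with a median log2 difference of 0.49 against -0.17 over all features. Among all features tested 9.14% were called higher and 12.6% lower. Besides Mmp8 and Mmp12, Mmp11 (stromelysin 3, a protease of tumor stroma) rose 3.22-fold (log2 difference 1.69 ± 0.42 SE, limma adjusted p = 0.0182). Timp4, the remaining inhibitor of the family, fell 11.0-fold (log2 difference -3.46 ± 0.78 SE, limma adjusted p = 0.0116). Timp4 lay at -4.83 and -4.50 in treated adenomas and at -5.75 and -5.07 in untreated adenomas, against -0.94, -0.10 and -4.47 in tumor-bearing and -2.18, -0.27 and -1.51 in tumor-free epithelium. The margin between the tissues was narrow, set by array 4 of the tumor-bearing epithelium. Of the 4 inhibitor genes 2 therefore rose, 1 fell and 1 did not pass the threshold.

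Of 14 ADAM and ADAMTS genes, which encode relatives of the matrix metalloproteinases, 14 were tested, 4 rose and 3 fell (median log2 difference 0.42). The shares of all features were 9.14% called higher and 12.6% called lower. Adam8, a membrane protease of leukocytes and tumor cells, rose 24.2-fold (log2 difference 4.59 ± 0.32 SE, limma adjusted p = 1.43e-05). Its 4 adenoma samples lay between 3.01 and 3.89 and its 6 epithelium samples between -1.57 and -0.59. Adamts1, a protease of the proteoglycan versican, rose 17.0-fold (4.08 ± 0.85 SE, limma adjusted p = 0.00759) and Adamts4, an aggrecanase, rose 6.73-fold (2.75 ± 0.53 SE, limma adjusted p = 0.00541). The probes of Adamts1 and Adamts4 were each well above background on 5 of 8 epithelium arrays, so both folds rest partly on unmeasured epithelium levels. Adam12 rose too (limma adjusted p = 0.0361), with no fold given for its dim signal. Adamts1 and Adam12 passed the filter on dim probes through the adenoma groups alone, so the count of 4 is partly fixed by it. Adamts15, another aggrecanase, fell 24.8-fold (-4.63 ± 0.89 SE, limma adjusted p = 0.00513), although array 4 of the tumor-bearing epithelium, at -1.60, lay within the adenoma range of -4.01 to -1.57. Adam15 fell 4.68-fold (-2.23 ± 0.47 SE, limma adjusted p = 0.0083).

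Among activators and binding partners 14 of 15 listed genes were tested, 4 rose and 1 fell (median log2 difference 0.75). The shares of all features were again 9.14% higher and 12.6% lower. Lcn2, whose product lipocalin 2 binds MMP9 in humans, lay at 1.47 and 3.95 in treated adenomas and at 3.53 and 2.66 in untreated adenomas, against -7.36, -5.01 and -6.26 in tumor-bearing and -7.01, -4.79 and -8.62 in tumor-free epithelium. The tissues stood far apart, and Lcn2 rose by a fitted log2 difference of 9.41 ± 0.80 SE (limma adjusted p = 4.48e-05). Its probe was well above background on 2 of 8 epithelium arrays, so the size of this difference rests on mostly unmeasured epithelium levels and no fold is given. Plat, which encodes tissue plasminogen activator, rose 25.6-fold (4.68 ± 0.54 SE, limma adjusted p = 0.000266). Serpine2, which encodes an inhibitor of serine proteases, was at least 2.07-fold higher (limma adjusted p = 0.0078). Cd44, a hyaluronan receptor that holds MMP7 and MMP9 at the cell surface, rose 6.95-fold (2.80 ± 0.66 SE, limma adjusted p = 0.0145). Plg, the plasminogen gene, was at least 3.15-fold lower (limma adjusted p = 0.0109). Lcn2 and Serpine2 passed the filter on dim probes through adenoma alone and Plg through epithelium alone, so these counts are partly fixed by it.

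Of 12 genes for transcription factors of the Ets and AP-1 families 12 were tested, 3 rose and 1 fell (median log2 difference 0.61). Here too the shares of all features were 9.14% higher and 12.6% lower. Ets1 rose 6.68-fold (2.74 ± 0.42 SE, limma adjusted p = 0.00148), Jun 4.81-fold (2.27 ± 0.40 SE, limma adjusted p = 0.00316) and Fosl1 6.80-fold (2.77 ± 0.70 SE, limma adjusted p = 0.0202). Jund fell 3.71-fold (-1.89 ± 0.56 SE, limma adjusted p = 0.0374). The tissues overlapped for Ets1, Fosl1 and Jund, each through treated adenomas. Fosl1 lay at -4.10 and -2.20 in treated and at 0.36 and -0.94 in untreated adenomas, against -7.28 to -2.98 in epithelium. Jund lay at 5.04 and 6.18 in treated and at 3.97 and 1.18 in untreated adenomas, against 5.14 to 6.47 in epithelium. For Ets1 the lower treated sample, at -0.02, lay below the highest epithelium sample, at 0.21. None of the genes of the 4 lists was called in the treated against untreated adenomas or between the epithelia.

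Neutrophil, Paneth cell and Wnt-active crypt markers mostly rose in adenoma, while markers of the other cell types mostly did not or fell. By comparison 9.14% of all features were called higher and 12.6% lower. In bulk tissue, fewer cells of a type and less RNA per cell cannot be told apart. Of 6 neutrophil markers tested 5 rose in adenoma and none fell, among them Csf3r (23.9-fold, limma adjusted p = 0.000316) and S100a9 (limma adjusted p = 0.000127), with no fold given for S100a9 because its probe was well above background on 4 of 8 epithelium arrays. Cxcr2 and Retnlg, above background on no epithelium array, and S100a8, on 1 of 8, passed the filter through the adenoma groups in which they were high, so the count of 5 is partly fixed by the filter. The summed signal of the 9 neutrophil markers on the array was 16.1 to 46.7 in treated adenomas and 18.7 to 22.9 in untreated adenomas, against 0.147 to 0.243 in tumor-bearing and 0.165 to 0.287 in tumor-free epithelium. Of these 9 markers, 1 was above background on no treated and 2 on no untreated adenoma array, while 5 were above background on no tumor-bearing and 4 on no tumor-free epithelium array. The granule genes Elane, Camp and Ngp did not pass the filter on dim probes. Mmp8, Mmp9 and Lcn2 are themselves products of neutrophils, and the part of neutrophils in their rise was not tested.

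Of the 5 Paneth cell markers on the array 5 were tested, 4 rose and none fell. Their summed signal was 66.7 to 109 in treated adenomas and 115 to 150 in untreated adenomas, against 2.49 to 45.8 in tumor-bearing and 2.38 to 63.0 in tumor-free epithelium, and Lyz1 rose 20.2-fold (limma adjusted p = 2.67e-05). The wide range of the epithelium sums followed 1 gene, Ang4, which was the marker not called and whose level ranged from 2.17 to 5.37 in adenoma and from -1.36 to 5.91 in epithelium. The alpha-defensin gene Defa1 was above background on no epithelium array. It passed the filter on dim probes through the adenoma groups in which it was high, so the count of 4 is partly fixed by the filter. Of 8 markers of Wnt-active crypt and adenoma cells 7 rose and none fell. Their summed signal was 154 to 198 in treated adenomas and 110 to 130 in untreated adenomas, against 25.6 to 28.9 in tumor-bearing and 16.7 to 30.1 in tumor-free epithelium. Lgr5, a stem cell receptor gene, rose 15.9-fold and Axin2 9.97-fold (limma adjusted p = 6.75e-05 and 9.41e-05). Notum, a further Wnt marker, was above background on 3 of 8 epithelium arrays and passed the filter through the adenoma groups alone. The count of 7 is therefore also partly fixed by the filter. The part of these cell types in the Mmp7 values was not tested.

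Of 10 fibroblast markers 1, Vim, rose and none fell, and their summed signal was 159 to 243 in treated adenomas and 148 to 182 in untreated adenomas, against 110 to 170 in tumor-bearing and 150 to 158 in tumor-free epithelium. All 10 were above background on every array. Of 10 macrophage markers 1 rose, of 7 endothelial markers 1 rose and of 7 mast cell markers 3 rose and 1 fell, where 9.14% of all features were called higher and 12.6% lower. Smooth muscle markers fell for 4 of 7, and B and plasma cell markers for 2 of 4 tested. None of 6 T cell markers was called, and the epithelial markers fell for 4 of 10.

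**Figure D4:**
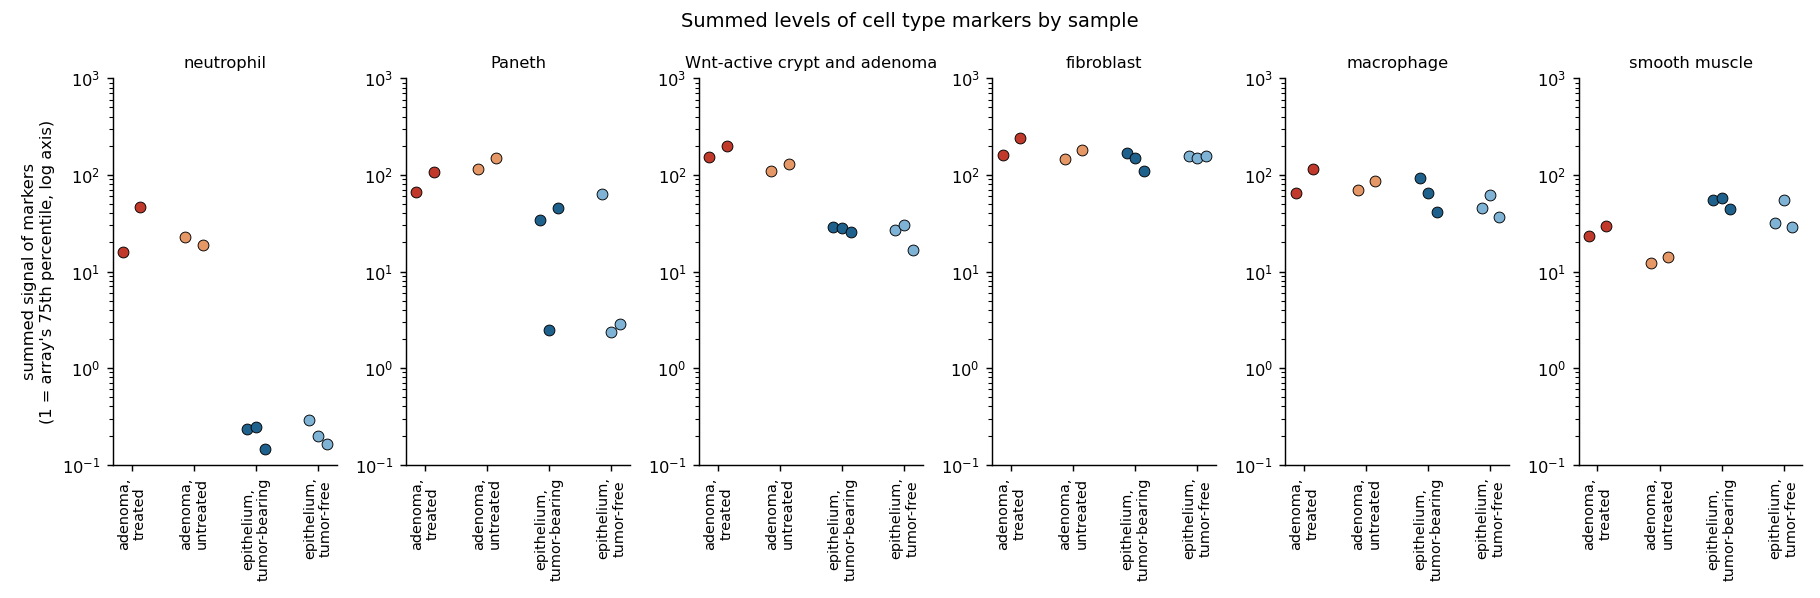
Summed signal of 6 marker lists in each sample, on a log axis in units of the 75th percentile of the array, with 1 point per sample. The neutrophil sums are 16.1 to 46.7 in adenoma and 0.147 to 0.287 in epithelium, while the fibroblast sums of the groups overlap. Sums of different lists hold different numbers of genes and are compared only between groups.

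The effect of a week of sulindac with atorvastatin on the adenomas was the second question. None of the 10 genes was called in treated against untreated adenomas (limma, 0 of 10 with an unadjusted p under 0.05), where 0.221% of 17628 features were called. No group had sulindac alone or adenomas with atorvastatin alone, so the drugs cannot be told apart. The median log2 difference of the 10 was -0.56, against 0.05 over all features. In all treated samples Mmp2, Mmp10, Mmp13 and Timp1 were lower than in all untreated samples, as were 20.9% of all features, and Timp2 was higher in all treated samples, as were 26.1%. With 2 samples against 2 such separation is common.

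Mmp13 had the lowest p, with a log2 difference of -2.75 ± 1.26 SE (95% confidence interval -5.56 to 0.06, limma adjusted p = 0.427). Mmp3 differed by -2.70 ± 1.66 SE (95% confidence interval -6.40 to 0.99, limma adjusted p = 0.564). For both genes the 2 treated samples disagreed, since array 1 lay near the untreated samples and arrays 2, 3 and 4 far below. Without treated array 1 the log2 difference of Mmp13 was -4.80, and without arrays 2, 3 and 4 it was -0.70, neither of them called. On the 2 scan dates that held both adenoma groups Mmp13 differed by -1.15 and -4.34 and Mmp3 by -0.83 and -4.49. Fits that counted near-identical arrays as separate samples called Mmp13, and most of them Mmp3 as well. Over the 16 other settings of this comparison 1 to 3307 of all features tested were called, against 39 in the main fit.

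Mmp10 differed by -0.95 ± 0.62 SE (95% confidence interval -2.33 to 0.43, limma adjusted p = 0.583), and was lower in the treated adenomas on both dates. Mmp7 differed by -0.52 ± 1.08 SE (95% confidence interval -2.93 to 1.90, limma adjusted p = 0.897), which leaves room for a change of several fold in either direction. Mmp2 differed by -1.81 ± 0.95 SE, Mmp9 by -0.39 ± 1.69 SE and Mmp14 by 0.89 ± 0.74 SE. Among the inhibitors Timp2 differed by 1.10 ± 0.77 SE, Timp3 by 0.28 ± 0.64 SE and Timp1 by -0.60 ± 0.60 SE (limma adjusted p = 0.613, 0.909 and 0.754). The other Timp1 probes differed by -2.08 ± 0.80 SE and -1.92 ± 0.70 SE (limma adjusted p = 0.382 and 0.366 over 25319 probes tested), so the 3 probes shared the direction but not the size. The second Mmp9 probe differed by -2.23 ± 0.85 SE (limma adjusted p = 0.376). These adjusted p rest on the spread of all 4 groups, of which the epithelium groups hold more samples.

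The third comparison asked whether the epithelium of tumor-bearing mice differed from that of tumor-free mice. None of the 9 genes tested was called (limma, 0 of 9 with an unadjusted p under 0.05), and 0% of 17647 features were called, 500 of them with an unadjusted p under 0.05. Mmp9 was not tested, since it was not above background on every array of either group. Mmp7 differed by 1.39 ± 0.87 SE (95% confidence interval -0.55 to 3.33, limma adjusted p = 0.994), with array 4 of the tumor-bearing epithelium at -1.24 apart from the other samples. Mmp13 differed by -1.77 ± 1.02 SE (95% confidence interval -4.03 to 0.49, limma adjusted p = 0.994). For each of the other 7 genes tested the log2 difference lay between -0.47 and 0.26. The near-identical arrays across groups belong to this comparison.

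The genes whose profile over the 10 samples was most like that of each member were found among 14356 named genes, by the root mean square difference of centred log2 levels. These points share the arrays, and most of the likeness is the contrast of the tissues. For Mmp7 they were the amino acid transporter gene Slc38a4 (0.78), the antimicrobial lectin gene Reg3b (0.95), the Wnt inhibitor gene Dkk2 (1.25), the neutrophil gene S100a8 (1.32) and the alpha-defensin gene Defa23 (1.39), whose probe can bind related defensins. Each of these genes was well above background on 1 of 8 epithelium arrays, while Mmp7 was on 8 of 8. Their likeness to Mmp7 therefore rests on mostly unmeasured epithelium levels. For Mmp10 they were the keratin gene Krt36 (0.51) and Pdgfrl (0.59). Mmp3 and Mmp13 shared Dio2, a thyroid hormone deiodinase gene (1.22 and 0.98), followed by the BMP antagonist gene Grem1 for Mmp3 (1.26) and the interleukin-33 receptor gene Il1rl1 for Mmp13 (1.02). Timp1 was nearest to the sulfatase gene Sulf1 and the phosphatase gene Dusp4 (0.37 each). Mmp9 was nearest to Tcra (1.00) and Il20ra (1.09). Genes that vary little reach small differences more easily: Mmp2 was nearest to Rab20 (0.16) and Aamp (0.24), Mmp14 to Baz1a (0.25) and A2ml1 (0.33), Timp2 to Traip (0.30) and Diaph3 (0.31), and Timp3 to Ltv1 and Oscp1 (0.30 each).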

How the data were processed

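Colon cells of mice were microdissected, and their RNA was hybridised to 15 Agilent whole mouse genome arrays in 1 colour. Per the labels' protocols, 10 ng of RNA went through linear amplification before labelling. Spot values came from Agilent Feature Extraction 9.5.3, per the file headers. The deposited files hold the mean, background and processed intensity of each spot. The authors' deposited value table holds log2 values of unstated normalization. Its 4 columns of the tumor-bearing epithelium followed the reverse order of that group's scanner files, so it was used as an alternative only, each column beside the file it matched.

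The log2 of the processed intensity was taken and set relative to the 75th percentile of the array's non-control probes. Controls and outlier-flagged spots were dropped, spots of a probe averaged, and the brightest probe of a gene used. Near-identical arrays of a group were averaged, giving 10 samples. The labels call the arrays biological replicates but link none to an animal, so p-values measure the spread between these samples. All 4 groups entered 1 limma 3.58.1 fit (lmFit and eBayes in R 4.3.3), with 6 residual and 3.9 prior degrees of freedom. Tests were two-sided, adjusted by Benjamini-Hochberg over all features tested, at 0.05. Features entered a test if at least 1 group compared was well above background on all its unflagged arrays. The number of arrays limits the precision. The procedure was tested on simulated data.

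All 10 genes and their probes are named. From each list of related genes the called genes with the highest absolute moderated t were named, at most 6 a list, and from each marker list at most 2. Likeness names 2 genes per member and 5 for Mmp7, among those above background on most arrays. Exceptions, named after their values were seen, are the other markers and the chromosome 9 neighbours. The list of activators and partners was shortened by 1 gene after its values were seen, which is not reported here. The genes, lists and rules were chosen with earlier results of these data known. Coordinates of probes come from the array design (mm7). Alternatives covered background correction, normalization, filters, probe choice, outlier flags, array weights, blocks for slide, scan date, shared RNA and replicate number, and leaving out arrays or samples.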

Additional observations from a re-analysis of the deposited data

How the results depend on the processing

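With 15 other settings, 5 to 9 of the 10 genes were called in adenoma against epithelium. Of all features tested, 2464 to 9333 were called with these settings, against 4116 in the main fit. The lowest count, 5, came from requiring every group compared to be well above background, which left Mmp3, Mmp9 and Mmp13 untested. Mmp7, Mmp10, Mmp13, Mmp3, Mmp9 and Timp1 were called in every fit that tested them. Mmp14 lost the call with no filter (adjusted p = 0.0578) and without the near-identical pair across groups (0.168). Timp2 gained it with each array as its own sample (0.0138), with slide as a random block (0.0173) and with the replicate block (0.017). In treated against untreated adenomas 2 genes, Mmp3 and Mmp13, were called in 3 settings. These were each array as its own sample, slide as a random block and the replicate block. With scan date as a fixed block 1 of them, Mmp13, was called. Over the 16 other settings of this comparison 1 to 3307 of all features tested were called, against 39 in the main fit. The number of calls over all features thus also depended strongly on the setting. The 19 calls in the 4 pairwise comparisons, partly fixed by the filter on dim probes, became 32, 30 and 32 under the first 3 of these settings. No share of all features is given for these 3 counts. These fits count near-identical arrays as separate samples, so the higher counts are no separate support. Samples with the same replicate number did not pair: the correlations of their deviations ranged from -0.19 to 0.46, with 7 of 21 over 0.1. Scan date as a block gives no value for comparisons with tumor-free epithelium, whose dates held no other group.

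Only differences that were not called changed sign. In treated against untreated adenomas Mmp9 became 0.11 (separate arrays), 0.78 (slide), 0.50 (scan date) and 0.61 (replicate block), and Mmp14 -0.42 with the mean over all probes. In tumor-bearing against tumor-free epithelium the values were -0.10, -0.28 and -0.10 for Mmp2, 0.17, 0.09 and 0.17 for Mmp10, and 0.28, 0.27 and 0.28 for Timp1 with separate arrays, slide and replicate block; array weights gave 0.19 for Mmp10, -0.58 for Mmp14, -0.37 for Timp2 and 0.074 for Timp3. With arrays left out, Mmp2 ranged from -1.06 to 0.14 in adenoma against epithelium, and between the adenomas Mmp9 ranged from -1.07 to 0.29 and Timp3 from -0.36 to 0.92. Between the epithelia the ranges were -0.63 to 0.61 for Mmp2, -1.13 to 0.70 for Mmp3, -0.56 to 0.32 for Mmp10, -0.37 to 0.61 for Mmp14, -0.43 to 0.35 for Timp1 and -0.24 to 0.99 for Timp2. Differences of dim genes such as Mmp8 and Mmp12 are limited by signal over background.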
